A study of Ovis aries with 18 samples.

Results

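The soleus muscle (SOL) was compared with the psoas major muscle (PM) of lambs by RNA sequencing. Members were chosen by library: the 6 SOL and 6 PM libraries, 12 of the 18 in the series, and every gene averaging 0.1 FPKM or more across these 12, which left 15531 of 20477 listed genes. FPKM is a read count scaled to the length of the gene and to the total of the library. The groups are labelled by muscle only. The labels name no treatment, genotype or breed, and beyond the word lamb no age, and the design text puts sampling on the carcass's left side. Library totals recovered from the values ranged from 11124192 to 14747118 reads. The remaining muscle of the series, longissimus lumborum (LL) of the loin, was outside the comparison and its levels are given only as a reference.

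The soleus is a small postural muscle of the hind limb, known in many mammals for its slow-twitch, oxidative fibres. The psoas major lies under the lumbar spine, flexes the hip and is the tenderloin of the carcass. Slow and fast fibres use different forms of the contractile proteins, such as the myosin heavy chains, and these are among the most abundant transcripts of a muscle. In bulk tissue, fewer cells of a type and less RNA per cell cannot be told apart. The table pairs no identifier with a gene name, and 0 of its 20477 Ensembl sheep identifiers matched the RefSeq table used here. The labelled muscles were therefore not checked against marker genes, genes are given by Ensembl identifier, and only 2 are named in each direction. The other genes are described by their rank and level.

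More than 1 in 5 genes differed between the muscles. Of the 15531 genes, 3228 were called (20.8%) at a Benjamini-Hochberg adjusted p under 0.05 in limma on log2(FPKM + 0.1), with 2183 higher in SOL (14.1%) and 1045 lower (6.73%). With same-numbered SOL and PM libraries as pairs, 3924 genes were called (25.3%), 2682 higher (17.3%) and 1242 lower (8%). The fits shared 3169 calls, all with the same sign. A further 755 genes were called only with pairs and 59 only without. Those called only with pairs had a median absolute log2 fold change of 0.61, and 491 of them had the same sign in all 6 pairs.

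**Figure D1:**
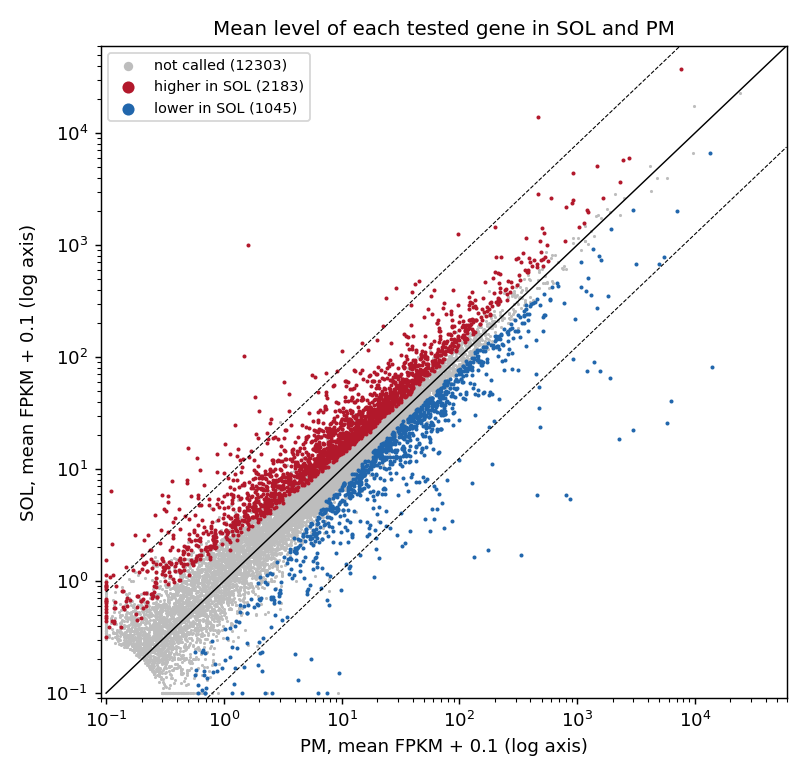
Mean level of each of the 15531 tested genes in PM (horizontal) and SOL (vertical), as FPKM plus 0.1 on log axes, with 2183 genes called higher in SOL in red, 1045 called lower in blue and 12303 not called in grey. The solid line marks equal levels and the dashed lines an 8-fold difference of the means. The genes farthest below the diagonal include several above 1000 FPKM in PM.

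The excess of genes higher in SOL depended on the scaling of the libraries. The median gene stood 0.16 higher in SOL on the log2 scale as deposited, and 0.02 higher after median-ratio scaling, a shift of 0.13. This scaling centres the median gene by construction, so the second value tests nothing. After that scaling there were 3311 calls (21.3%), with 1694 in favour of SOL (10.9%) and 1617 in favour of PM (10.4%), so that the share higher went from 67.6% to 51.2%. Of the 3228 calls, 2737 were also made after scaling with the same sign. The other 491 calls did not pass after scaling. The cause of the shift was not tested.

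Most calls were of moderate size. The median absolute log2 fold change of the called genes was 0.95, against 0.38 over all genes tested, and 1703 calls (52.8%) were under 1. At 1 or more stood 1525 calls (9.82% of genes tested), 1062 higher and 463 lower in SOL. At 3 or more, an 8-fold difference, stood 160 (1.03%), 88 higher and 72 lower. This count depends on the pseudocount of 0.1, and was 67 with a pseudocount of 1 and 315 with 0.01. At 5 or more the direction of the excess turned, with 6 higher and 19 lower.

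Most called genes had the same direction in every pair. Of the 3228 calls, 2804 (86.9%) had the same sign in all 6 pairs, 1899 higher and 905 lower, where the share over all genes tested was 26.2%. The other 424 calls (13.1%) did not, and at 0.1 to 1 FPKM the share with 1 sign was 66.5%. Of the genes not called, 1270 (10.3%) also had the same sign in all 6 pairs. Groups did not overlap for 1626 genes (10.5%), meaning that the ranges of the SOL and PM libraries were separate. Of these, 1596 were called and 30 were not. The other 1632 calls had some overlap between the muscles. Over the called genes, the log2 differences of the 6 pairs correlated with each other at r from 0.79 to 0.86, and over all tested genes at r from 0.34 to 0.44. These correlations are across genes, which are not independent, and the calls were made from the same libraries. No library is used by more than 1 pair.

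**Figure D2:**
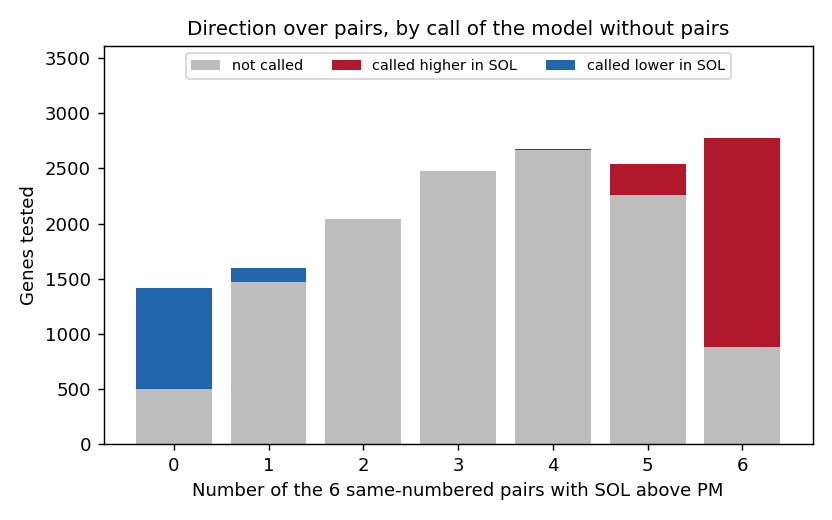
Number of genes tested (vertical) by how many of the 6 same-numbered pairs had SOL above PM (horizontal), coloured by the call of the model without pairs. All 6 pairs had SOL above PM for 1899 of the 2183 genes called higher, and no called gene stood at 3 pairs.

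As deposited, the pairs differed in how far the median gene leaned to SOL. The median log2 difference over all tested genes was 0.25 in pair 2, 0.21 in pairs 3 and 4, 0.16 in pair 6, 0.01 in pair 1 and 0 in pair 5. Pairs 1 and 5 were thus centred near 0, and the other 4 leaned to SOL. After median-ratio scaling, which centres the median gene of each library, the medians were between 0 and 0.03 in all 6 pairs. That follows from the method, so the lean is described as deposited only and was not tested. Pair 5 went against the sign of the call for 113 genes, most of any pair, and 88 of these were genes called higher. Pair 4 went against it for 25 genes, and the remaining pairs for 64 to 92. SOL 5 also had fewer genes with a value above 0 (14181) than any other SOL library, which held 14959 to 15421. It was below every PM library too (14647 to 14942), although its recovered total of 14747118 reads was the largest of the 12 libraries. Without SOL 5 the model made 3187 calls, 2207 higher and 980 lower.

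Calls were more frequent among abundant genes. They made up 5.86% of the 2899 genes with a mean of 0.1 to 1 FPKM, 15.7% at 1 to 10, 29.4% at 10 to 100, 55.4% at 100 to 1000 and 57.9% of the 57 genes at 1000 FPKM or more. At 0.1 to 1 FPKM, 128 genes were higher and 42 lower in SOL. At 1000 or more, 17 were higher and 16 lower. The median absolute log2 fold change of the calls went from 2.05 in the lowest class to 0.74 at 100 to 1000 FPKM and was 1.51 in the highest class. On a gene of 1 kb, 1 read in a library of the mean total is worth 0.0786 FPKM. How small a difference could be detected at each level was not tested. After median-ratio scaling, lower calls outnumbered higher ones above 10 FPKM, with 962 against 851 at 10 to 100, 173 against 130 at 100 to 1000 and 14 against 11 at 1000 or more.

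**Figure D3:**
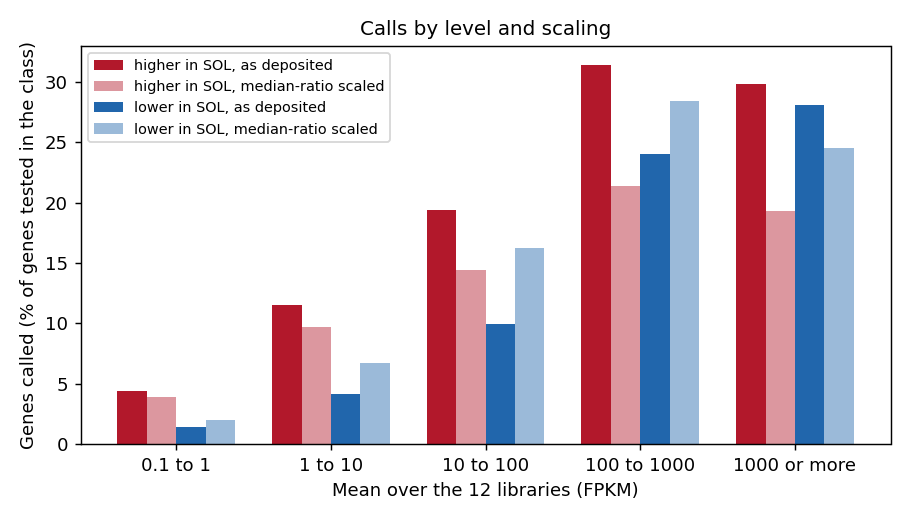
Share of genes called higher (red) or lower (blue) in SOL, as a percentage of the genes tested in each class of mean level in FPKM, as deposited (dark bars) and after median-ratio scaling (light bars). In both scalings the classes from 100 FPKM upward have the highest shares called, and above 10 FPKM the lead of the higher genes as deposited turns after scaling.

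The 100 most abundant genes of SOL and the 100 of PM shared 66 and together made 134 genes, of which 87 were called (64.9%, against 20.8% of all genes tested), 49 higher and 38 lower in SOL. After median-ratio scaling 70 of the 134 were called, 32 higher and 38 lower. The number of abundant genes called also depended on the filter and the model. It was 81 with no low-value filter, 94 with a filter of 1 FPKM, 98 with a filter of 10 FPKM and 98 with voom on recovered reads. The 34 genes in the SOL set alone had 29 calls, all higher in SOL, and the 34 in the PM set alone had 27, all lower. A gene in 1 set alone entered through the muscle where it is high, so the directions and the share called of these genes follow in part from how the sets were formed. Of the 66 genes in both sets 31 were called (47.0%), 20 in favour of SOL and 11 in favour of PM. That share is below the 55.4% of all genes at 100 to 1000 FPKM and the 57.9% of those at 1000 or more. Being in both sets selects against genes that differ, so this share also follows in part from how the sets were formed. Changes of at least 2 on the log2 scale were found for 9 higher and 18 lower genes of the 134.

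By FPKM, the leading transcript of SOL differed from that of PM. In all 6 SOL libraries the most abundant gene was ENSOARG00020015986 (recovered length 685 bp), the gene with the largest difference in mean FPKM among those higher in SOL. Its level in SOL was 30773 FPKM at the lowest, 34374 at the median and 51408 at the highest. In PM it was 2113 at the lowest, 8124 at the median and 9812 at the highest. The muscles did not overlap, PM 5 was far below the other PM libraries (7646 or more) and SOL 5 was the highest SOL library. The means were 37633 ± 8318 FPKM in SOL and 7571 ± 2819 in PM (SD, n = 6 each). The log2 fold change was 2.44 (SE 0.42, limma adjusted p = 0.00059, 0.0026 with pairs). SOL was higher in 6 of 6 pairs, by 1.89 to 2.18 on the log2 scale in 5 of them and by 4.60 in pair 5. No overlap and the same sign in all pairs were conditions for naming a gene, so they add no evidence here. Without PM 5 the log2 fold change was 2.10. By mean reads, which are not scaled to length, it ranked 5 in SOL and 25 in PM. In LL the gene ranged from 337 to 6119 FPKM, and LL 5 was the lowest LL library.

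In all 6 PM libraries the most abundant gene by FPKM was one that was not called and stood at rank 2 in SOL. Its mean was 23939 ± 4708 FPKM in PM, and in SOL 22631 ± 2970 (SD over 6 libraries). The log2 fold change was -0.07 (SE 0.36), with a limma adjusted p of 0.93, and 3 of 6 pairs had SOL higher. The gene at rank 3 in SOL had 17498 ± 3633 FPKM there and 9879 ± 2614 in PM. Its log2 fold change of 0.85 (SE 0.32) did not pass (limma adjusted p = 0.073), although the muscles did not overlap and SOL was higher in 6 of 6 pairs. The gene at rank 6 in SOL stood at 6649 ± 807 FPKM there and 9734 ± 1149 in PM. It did not pass either (limma adjusted p = 0.12), again with no overlap. The limma SE draws on a trend of variance with level across genes, so it is not the spread of a gene alone. The lack of a call for a leading gene is thus not evidence of equal levels. The 20 leading genes of each muscle made 29 genes together, of which 10 were higher in SOL, 10 lower and 9 not called. Of all genes tested 20.8% were called, and of those averaging 1000 FPKM or more 57.9%. The muscles did not overlap for 21 of the 29, 2 of them not called, against 10.5% of all genes tested. A gene among the 20 of 1 muscle alone entered through the muscle where it is high, so these counts follow in part from the choice.

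The gene at rank 4 in SOL (802 bp) was among the transcripts that separated the muscles most. It ranged from 11268 to 21477 FPKM in SOL, with a median of 12479, and from 33.9 to 931 in PM, with a median of 486.7, where it ranked 121. The lowest SOL library was thus above 10 times the highest PM library. The log2 fold change was 5.40 (SE 0.59, limma adjusted p = 7.7e-06). Of the 88 genes higher in SOL by at least 3, 3 had a mean of 1000 FPKM or more in SOL, and this was the most abundant of them. The others were at 2838 ± 904 against 461 ± 304 FPKM (895 bp) and at 1247 ± 130 against 97.0 ± 26.7 FPKM (729 bp), and their muscles did not overlap either.

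A few genes held a larger share of the summed level in SOL. The 10 most abundant genes of each library made up 22.6 ± 2.23% of its summed FPKM in SOL and 20.0 ± 1.27% in PM (SD, n = 6 each). This difference of 2.58 percentage points had an exact two-sided permutation p of 0.015, and SOL was higher in 6 of 6 pairs. After adjustment over 6 library measures the exact permutation p was 0.043, and the exact sign-flip permutation p over pairs was 0.094. The sign-flip test cannot give an unadjusted p under 0.031. SOL 5, at 26.9%, was far above the other SOL libraries (23.0% or less), and without it the difference was 1.72 points. The most abundant gene alone made up 6.66 ± 1.12% in SOL and 4.57 ± 0.91% in PM (difference 2.09 points, adjusted exact permutation p = 0.043, 0.094 over pairs). Genes at 100 FPKM or more numbered 669.5 ± 20.9 in SOL and 632 ± 24.3 in PM (adjusted exact permutation p = 0.043, 0.094 over pairs). Counts at a fixed FPKM threshold depend on the scaling of the libraries, and were made only on the values as deposited. The 100 most abundant genes made up 43.8 ± 3.05% and 43.9 ± 2.36% (adjusted exact permutation p = 0.94). For genes with a value above 0 and genes at 1 FPKM or more the differences of 202 and 339 genes did not pass (adjusted exact permutation p = 0.37 and 0.062). Without SOL 5 they were 366.9 and 424 genes and both passed (adjusted exact permutation p = 0.013 each). The call for genes at 100 FPKM or more was lost in 11 of 12 fits that left out 1 library, and those for the most abundant gene and the 10 most abundant in 9 of 12 each.

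**Figure D4:**
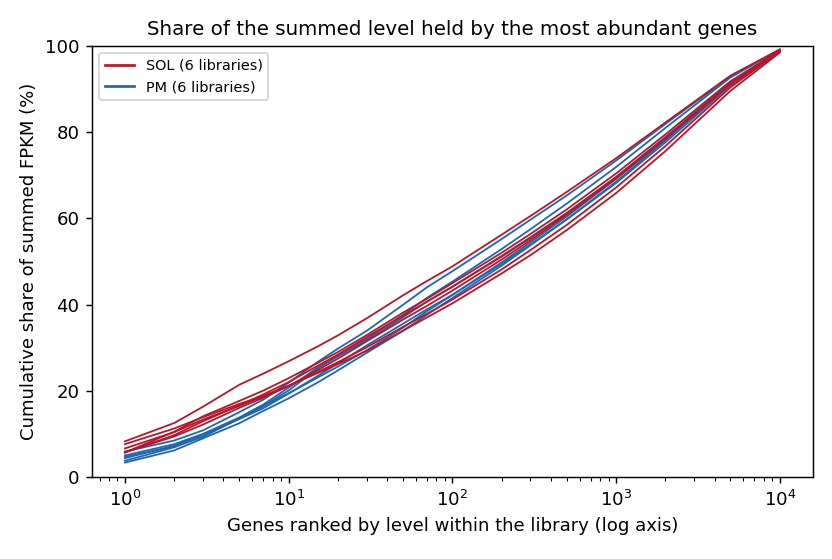
Cumulative share of each library's summed FPKM (vertical, percent) held by its most abundant genes, ranked within the library (horizontal, log axis), for 6 SOL libraries in red and 6 PM libraries in blue. At 10 genes the SOL libraries hold 21.2% to 26.9% and the PM libraries 18.3% to 21.9%, and at 100 genes the muscles overlap.

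Large falls included more of the abundant transcripts than large rises did, as counts with no test of the difference. Of the 72 genes lower in SOL by at least 3, 48 had a mean of 10 FPKM or more in PM, 22 had 100 or more and 9 had 1000 or more. Of the 88 genes higher by at least 3, 43 had 10 or more in SOL, 14 had 100 or more and 3 had 1000 or more. The median level in the muscle where they were higher was 33.5 FPKM for the lower genes and 9.52 for the higher ones. Groups did not overlap for 133 of the 160 genes, 151 had the same sign in all 6 pairs, and all 160 were also called with pairs. Over all genes tested these shares were 10.5%, 26.2% and 25.3%. The 160 were chosen by call and size in these same libraries, so their counts follow in large part from the choice. Every pair differed by at least 3 for 29 of the 72 lower and 12 of the 88 higher genes.

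ENSOARG00020018635 (5935 bp) had the largest fall. In PM it stood at 4175 FPKM at the lowest, 5807 at the median and 7092 at the highest. In SOL it was 1.73 at the lowest, 2.25 at the median and 139 at the highest. The muscles were separated by a gap of more than 10-fold, and SOL 3 was far above the other SOL libraries (7.47 or less). The log2 fold change was -10.10 (SE 0.81, limma adjusted p = 3.0e-07, 1.1e-06 with pairs), and -11.04 without SOL 3. In reads, the gene averaged 422510 per library in PM, where it ranked second, and 2085 in SOL.

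ENSOARG00020010502 had the largest difference in mean FPKM among the lower genes. Its level in PM was 11864 FPKM at the lowest, 13755 at the median and 16853 at the highest. In SOL it was 9.89 at the lowest, 29.1 at the median and 348 at the highest, again in SOL 3, with the other SOL libraries at 53.1 or less. The log2 fold change was -8.48 (SE 0.59, limma adjusted p = 8.0e-08, 7.6e-07 with pairs), and -9.12 without SOL 3. The recovered length of this gene was 96 bp, below the fragment length of about 300 bp in the labels' protocol. A length this short raises FPKM per read: the gene ranked second in PM by FPKM but 70 by reads, with a mean of 16540 reads.

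SOL 3 was the highest SOL library for most of the abundant genes that fell. Among the 9 genes lower by at least 3 with a PM mean of 1000 FPKM or more, it was the highest SOL library for 8, and among all 72 lower genes for 37. For the 5 of the 9 with the most PM FPKM that were under 1% of the PM mean in every other SOL library, SOL 3 held 2.40% to 4.51% of the PM mean, where the other SOL libraries held 0.381% or less. Among genes lower by at least 3, the median log2 difference was -3.53 in pair 3 and from -3.99 to -4.51 in the other pairs. Without SOL 3, 168 genes were called at 3 or more, against 160 with it. This lies within the 156 to 173 found when any 1 library was left out.

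**Figure D5:**
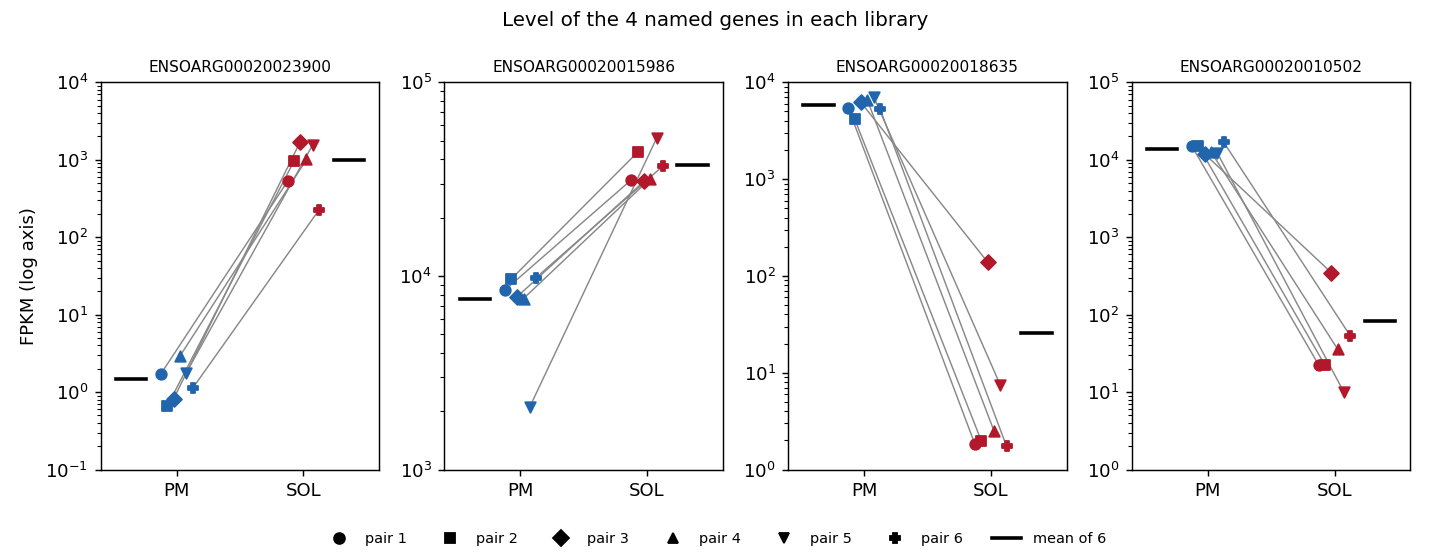
Level of the 4 named genes in each PM (blue) and SOL (red) library, as FPKM on log axes, with lines joining same-numbered libraries, a marker shape for each pair and black bars for the means of 6 libraries. In the panels of ENSOARG00020018635 and ENSOARG00020010502 the SOL library of pair 3 lies above the other 5, and in that of ENSOARG00020015986 the PM library of pair 5 lies below the other 5.

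The largest rise was that of ENSOARG00020023900 (774 bp). In SOL it stood at 227 FPKM at the lowest, 980.4 at the median and 1705 at the highest. In PM it was 0.658 at the lowest, 1.42 at the median and 2.90 at the highest, or 7 to 28 reads per library. The muscles did not overlap, which was a condition for naming a gene, and the SOL libraries varied more than 7-fold among themselves. The log2 fold change was 9.16 (SE 0.44, limma adjusted p = 2.8e-09, 8.6e-08 with pairs). Single pairs ranged from 7.54 in pair 6 to 10.87 in pair 3. With a pseudocount of 1 the log2 fold change was 8.43. In LL it ranged from 2.66 to 20.4 FPKM.

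Some genes had values above 0 in 1 muscle only. No SOL library had a value above 0 for 69 tested genes, 9 of them called, and no PM library for 126, 18 of them called. Both shares called are below the 20.8% of all genes tested. In the called genes with a recovered length and a mean of at least 1 FPKM in the other muscle, 5 were absent from SOL and 2 from PM. The clearest was a gene of 774 bp at 7.40 ± 4.37 FPKM in PM (SD, n = 6, 432 reads in all). Against a floor of 3 reads in each SOL library (0.298 FPKM) this mean was at least 24.9-fold higher. Single PM libraries ranged from 1.72 to 13.7 FPKM. For a gene of 849 bp at 6.21 ± 3.52 FPKM in PM (1.93 to 10.5), the mean was at least 22.9-fold higher. In the other direction, a gene of 2108 bp at 1.43 ± 0.917 FPKM in SOL had a mean at least 12.4-fold above the same floor in PM. Its SOL libraries ranged from 0.453 to 3.15 FPKM, against a floor of 0.116. All 3 had reads in all 6 libraries of the muscle where they were found. They were chosen after their values were seen.

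The called genes carried much of each library. Genes called higher in SOL took 32.2% to 35.7% of the reads of SOL libraries and 13.0% to 16.0% of those of PM libraries. Genes called lower took 11.7% to 14.3% in SOL and 31.0% to 35.8% in PM. The genes not called took 51.7% to 55.0% in SOL and 50.2% to 53.4% in PM. The called genes were chosen from these libraries, so these shares describe them and test nothing.

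The spread between libraries and the gene lengths of the classes are given as a description. Genes called higher in SOL had a median SD over 6 libraries of 0.35 in SOL and 0.36 in PM on the log2 scale, and 970 of 2183 had the larger SD in SOL. Genes called lower had 0.32 and 0.29, and 612 of 1045 had the larger SD in SOL. In genes not called the SD was 0.45 and 0.42, and 6857 of 12303 had the larger SD in SOL. The median recovered length was 1596 bp for the higher, 1552 bp for the lower and 1510 bp for the other genes. Lengths divisible by 3 made up 44.7%, 49.5% and 43.4% of these classes. A length was recovered for 96.8% of the tested genes.

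LL, which had no part in the fit, lay on the PM side for most called genes. On the log2 scale the LL mean was nearer to PM than to SOL for 2014 of the 2183 genes higher in SOL (92.3%) and for 911 of the 1045 lower genes (87.2%). For genes that differed by at least 3, this held for 85 of 88 and 64 of 72. The same share was 70.1% over all genes tested and 64.7% over those not called. The LL mean lay beyond the PM mean, away from SOL, for 1175 of the higher and 590 of the lower genes, and beyond the SOL mean for 22 and 25. These counts are a description, with no test.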

How the data were processed

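The table holds 1 column of FPKM per library as deposited by the authors. The file header names no unit. For all 13990 genes with values in 12 or more of the 18 libraries, a whole length was found that turns the values into whole reads (tolerance 0.05), which gave reads, lengths and library totals. Per the labels' protocols, RNA was depleted of ribosomal RNA, and alignment used HISAT2 (2.2.1) and transcript assembly StringTie (2.2.0). DESeq is listed in the submitters' processing notes, with no step stated. For the counting program, the genome build and strandedness: not given in the sources used here. Although the series concerns lncRNA, the table lists Ensembl genes, and none is called non-coding here.

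Genes averaging 0.1 FPKM or more were fitted in limma (3.58.1, under R 4.3.3) on log2(FPKM + 0.1), with a variance trend, 1 coefficient for muscle and Benjamini-Hochberg adjustment, two-sided. Fold changes are on that log2 scale, which understates low genes. The fit with same-numbered libraries as a block was run beside it. The labels tie no number to a carcass. Deviations from the muscle means correlated at r from 0.12 to 0.22 between same-numbered libraries and from -0.09 to 0.02 between others, so the numbers were taken as pairs. Where they do not mark animals, p-values measure only the spread between libraries. Library measures used exact two-sided permutation tests (scipy 1.17.1). The recovery and the model were checked on simulated data.

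Named genes passed an adjusted p under 0.05, an absolute log2 change of 1 or more, a mean of 0.5 FPKM or more, no overlap and 1 sign over all pairs (566 higher, 308 lower). In each direction the largest log2 change and the largest remaining difference in mean FPKM were named. Members, rules and tests were chosen with earlier results of these data known. Gene lists of fibre types, metabolism and other cells had no members, as no identifier had a name, and no sequence was printed for the same reason. Alternatives were the block, pseudocounts, filters, scaling, weights, voom on recovered reads, all 18 libraries and left-out libraries.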

Additional observations from a re-analysis of the deposited data

Results flagged for a closer look

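Of 20 sets of 6 libraries examined (6 library measures and 4 named genes in 2 muscles), 5 held a library set apart by a gap to its neighbour larger than Dixon's critical value for 6 samples. Chance would flag about 1 in 20 sets if they were independent and normally distributed. These sets share libraries and the named genes were chosen for large differences, so the number of flags is not a test. SOL 5 had values above 0 for 14181 genes, against 14959 or more in the other SOL libraries. It also held 26.9% of its summed FPKM in its 10 most abundant genes, against 23.0% or less. SOL 3 held ENSOARG00020018635 at 139 FPKM against 7.47 or less in the other SOL libraries, and ENSOARG00020010502 at 348 FPKM against 53.1 or less. PM 5 held ENSOARG00020015986 at 2113 FPKM against 7646 or more in the other PM libraries.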

How the results depend on the processing

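The number of called genes stayed within 1.5 times of 3228 under every alternative run, from 2362 with a filter of 10 FPKM to 3924 with the replicate block. The number of genes tested differed, at 6579 with that filter and 15531 with the block. The share called was thus higher with the filter than the 20.8% of the main fit. Leaving out 1 library at a time gave 2669 to 3239 calls in all, 1734 to 2273 higher, 876 to 1005 lower, 1327 to 1623 at a log2 change of at least 1, 156 to 173 at 3 or more, 80 to 89 among the most abundant genes and 2462 to 2947 with 1 sign over the pairs left. Of the 3228 calls, 2342 (72.6%) were made in all 12 of these fits, among them 157 of the 160 at 3 or more. The count at 3 or more was 67 with a pseudocount of 1, 315 with 0.01 and 72 with a filter of 10 FPKM, which left 702 at 1 or more. Lower calls numbered 1617 after median-ratio scaling and 1832 with scaling and the replicate block together. Of the 50 most abundant genes of either muscle 47 of 71 were called, and of the 200 most abundant 162 of 253. The replicate block changed the call of none of the 4 named genes, whose direction and call held in all 27 alternatives run for each, 2 of which were chosen after seeing the data.

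The library measures were less stable. Over pairs (the replicate block for these measures, an exact sign-flip test) the differences of 37.2 genes at 100 FPKM or more, 2.09 points for the most abundant gene and 2.58 points for the 10 most abundant did not pass. Without SOL 3 and SOL 5 together the differences were 372 genes above 0 and 447 genes at 1 FPKM or more, which passed, as they did without SOL 5 alone but not without SOL 3 alone, and 38.9 genes at 100 FPKM or more, 1.91 points and 1.64 points, which did not. Leaving out 1 library gave 118.9 to 366.9 genes above 0, 248 to 424 genes at 1 FPKM or more, 31.9 to 43.9 genes at 100 FPKM or more, 1.76 to 2.37 points for the most abundant gene, 1.72 to 2.97 for the 10 and -1.11 to 0.68 for the 100 most abundant. In these fits the call was lost in 11 of 12 for genes at 100 FPKM or more and in 9 of 12 each for the most abundant gene and the 10 most abundant. The difference for the 100 most abundant changed sign in 5 of these fits, with values of 0.0094, 0.60, 0.42, 0.19 and 0.68. The cause was not tested.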
